A study of Mus musculus with 39 samples.

Results

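The 38 collagen genes expressed in bulk tumours of a Braf-mutated mouse melanoma are described here. They were taken from the deposited count table, in which 44 of 39179 gene identifiers carried a symbol made of Col, a number, a and a number, and 38 of these had a mean of at least 0.1 CPM over 39 libraries. For this choice CPM was the usual scaled count, a gene's share of the total of its library. CPM levels of libraries and groups instead divide by the total of the genes tested by edgeR times its normalization factor (TMM). This threshold uses no group, but the set was chosen with earlier results of these data known. Just inside the threshold lay Col26a1 with 0.104 CPM and Col10a1 with 0.108 CPM, and just outside it lay Col4a4 with 0.0860 CPM and Col22a1 with 0.0825 CPM. The other rows left out were Col2a1, Col4a3, Col9a1 and Col9a2.

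Tumour cells grown in culture were injected into C57BL/6 mice, and treatment began 7 days later. The animals received anti-PD-1 plus EPAT (called the combination below), EPAT alone, anti-PD-1 alone or vehicle, a mixture of DMSO, PEG400 and water. EPAT stands for antagonists that block the prostaglandin receptors EP2 and EP4, dosed at 30 mpk, and anti-PD-1 is an antibody against an inhibitory receptor of T cells, given at 200 µg per dose. Tumours were labelled day 5 or day 2 of treatment, with 5 libraries in each of the 8 groups except anti-PD-1 on day 2, which had 4. The extraction protocol speaks of isolation on day 4, which is neither time point, and the title numbers of 3 libraries (EPAT day 5 replicate 5, EPAT day 2 replicate 5 and anti-PD-1 day 5 replicate 3) are those of another group, so groups follow the labelled treatment and time point of each sample. The labels name no cell line or clone, give no sex or age, and do not state that libraries came from separate animals, so p-values reflect only how far these samples spread, which may be partly technical.

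Library totals ran from 8385741 to 15558113 counts with a median of 12193825. Of the defining melanocyte genes, Tyrp1 was at 0 in 39 libraries, Tyr in 38 and Mlana in 35, while Mitf, the lineage transcription factor, ranged from 30.5 to 82.4 CPM. Transcripts of lung genes (Sftpc, Sftpa1 and Scgb1a1, summed) stood at 50.0 to 156 CPM in 23 libraries and at 0.164 to 1.19 CPM in the other 16, and they were found in 9 of 20 day 5 libraries and 14 of 19 day 2 libraries. No pair of libraries within a group agreed within counting noise. RNA came from bulk tumour, so fewer cells of a type and less collagen mRNA per cell cannot be told apart.

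Collagens are secreted or membrane proteins whose chains wind around each other into rope-like helices. Fibrillar collagens, made mainly by fibroblasts, assemble into the tensile fibres of connective tissue and of tumour stroma. Type IV collagen forms the sheet-like network of basement membranes around vessels and epithelia, and the remaining classes decorate fibrils, anchor membranes, form beaded filaments or span the cell surface. Several types are built from chains of more than 1 gene, so the balance between chain genes can be read beside their levels.

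Fibrillar genes made up most of the collagen mRNA. The 38 genes together took 1.18% ± 0.671 of all counts (SD, n = 39), with 0.608% in the lowest library and 3.59% in the highest. The 10 fibrillar members held 77.8% ± 6.03 of these collagen counts, and Col1a1, Col1a2 and Col3a1 alone held 72.0% ± 6.64. Beaded filament genes held 6.17% ± 1.56, short-chain network genes 5.19% ± 2.52, basement membrane genes 4.75% ± 1.54, fibril-associated genes 3.97% ± 0.855 and multiplexins 1.72% ± 0.554. Anchoring fibril and other genes held 0.253% ± 0.134 and transmembrane genes 0.184% ± 0.114. The libraries count tags near transcript 3′ ends and carry no length term, so these are shares of tags.

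On day 5 collagen counts took 1.58% ± 0.311 of the library in the combination, 1.49% ± 0.610 with EPAT, 1.74% ± 1.31 with anti-PD-1 and 1.09% ± 0.615 with vehicle (SD, n = 5 each). On day 2 the shares were 0.995% ± 0.675, 0.813% ± 0.0642, 0.868% ± 0.140 (n = 4) and 0.808% ± 0.156 in the same order. The spread was widest with anti-PD-1 on day 5, where replicates 4 and 5 lay far above the other libraries of the group.

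**Figure D1:**
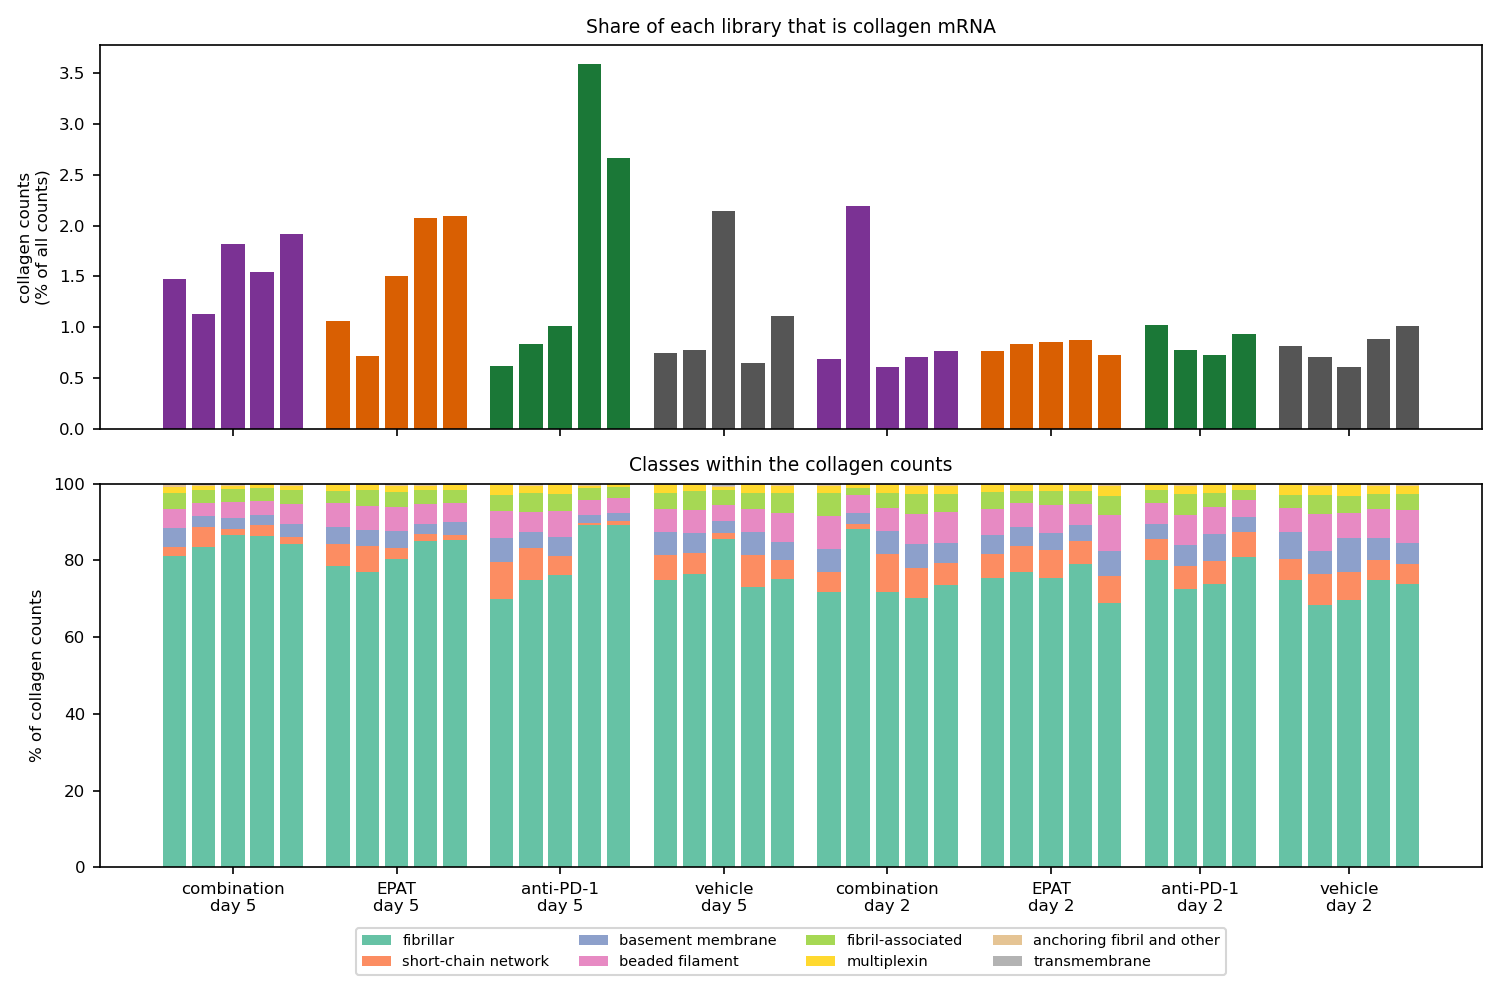
Collagen counts in each of the 39 libraries. The upper panel gives collagen counts as a percentage of all counts of the library (bars from 0), and the lower panel divides them into the 8 classes (percentage of collagen counts). Groups run from the treated tumours to vehicle, day 5 left of day 2. The highest bar is 3.59% and the lowest 0.608%, and the fibrillar class fills 68.4% to 89.2% of every bar.

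Promoter windows of 5 genes are printed because Col1a2, Col3a1 and Col5a1 lead the fibrillar group whose levels moved together over the libraries, Col23a1 had the widest range of the members found in every library, and Col8a1 ran the other way. The windows come from RefSeq on build GRCm38.p6 and hold the 250 bases before each annotated start, in lower case, 5′ to 3′ on the gene's strand. Capitals mark the TATA box letters TATAAA, the CCAAT box and the GC box GGGCGG on either strand, so the reverse complement of each is in capitals as well. The windows are Col1a2 at chr6:4505370-4505492 on the plus strand (the 123 bases that lie outside an annotated exon), Col3a1 at chr1:45311288-45311537 on the plus strand, Col5a1 at chr2:27886175-27886424 on the plus strand, Col8a1 at chr16:57754738-57754987 on the minus strand and Col23a1 at chr11:51289670-51289919 on the plus strand.
Col1a2: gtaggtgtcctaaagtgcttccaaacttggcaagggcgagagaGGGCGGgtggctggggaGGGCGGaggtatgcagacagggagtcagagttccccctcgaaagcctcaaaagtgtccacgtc
Col3a1: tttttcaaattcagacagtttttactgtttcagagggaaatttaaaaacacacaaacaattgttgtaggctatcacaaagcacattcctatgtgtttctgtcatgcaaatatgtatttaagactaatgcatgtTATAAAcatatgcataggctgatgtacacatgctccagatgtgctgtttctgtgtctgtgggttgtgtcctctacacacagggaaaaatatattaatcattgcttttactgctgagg
Col5a1: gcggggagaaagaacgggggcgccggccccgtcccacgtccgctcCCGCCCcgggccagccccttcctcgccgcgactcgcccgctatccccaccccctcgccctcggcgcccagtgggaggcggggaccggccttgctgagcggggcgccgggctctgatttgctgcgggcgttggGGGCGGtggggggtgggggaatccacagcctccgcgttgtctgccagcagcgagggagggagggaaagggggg
Col8a1: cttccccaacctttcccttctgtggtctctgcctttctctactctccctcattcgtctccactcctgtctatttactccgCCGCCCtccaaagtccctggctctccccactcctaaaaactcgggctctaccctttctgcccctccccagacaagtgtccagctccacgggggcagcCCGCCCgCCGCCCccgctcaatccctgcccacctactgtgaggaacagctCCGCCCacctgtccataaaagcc
Col23a1: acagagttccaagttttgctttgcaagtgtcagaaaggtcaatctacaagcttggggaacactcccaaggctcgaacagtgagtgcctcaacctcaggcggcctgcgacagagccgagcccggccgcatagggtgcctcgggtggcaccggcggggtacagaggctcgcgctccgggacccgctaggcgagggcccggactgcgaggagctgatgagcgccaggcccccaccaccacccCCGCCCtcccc
The Col3a1 window was AT-rich, with 35.2% G and C, and held a TATAAA 117 bases before the start and no GC box. The Col5a1 window had 76.4% G and C and 2 GC boxes, the Col8a1 window 60.8% and 4 GC boxes, the Col23a1 window 66% and 1 GC box, and the whole Col1a2 window 62%, 2 GC boxes and 1 CCAAT 109 bases before the start, in the part not printed. RefSeq windows were matched for 32 of the 38 members, 34 windows in all. GGGCGG was in 61.8% of these collagen windows and in 32.7% of all 32851 windows, CCAAT in 35.3% and 33.8%, and TATAAA in 14.7% and 12.4%. A match is a description of letters, not of a bound site. No matches in these windows overlapped each other. Levels of Col1a2, Col5a1 and Col3a1 each followed those of Col1a1 (below), and of these windows only that of Col3a1 lacked a GC box. A link between these letters and the levels was not tested.

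Type I collagen, the main fibre of skin and stroma, is built from the chains of Col1a1 and Col1a2. On day 5 Col1a2 stood at 4052, 4392, 8866, 5249 and 7876 CPM in the combination, at 3754, 2635, 4565, 7450 and 7746 CPM with EPAT, at 1769, 2867, 2700, 13843 and 11818 CPM with anti-PD-1 and at 2023, 2554, 8261, 1826 and 2069 CPM with vehicle, in replicate order 1 to 5. Every combination library lay above 4 of the 5 vehicle libraries, vehicle replicate 3 reached the level of the highest combination libraries, and the anti-PD-1 group split into 3 low and 2 high libraries. On day 2 Col1a2 stood at 1709, 8723, 1655, 1889 and 2332 CPM in the combination, at 1700, 2079, 2202, 3233 and 1837 CPM with EPAT, at 2739, 1992, 1737 and 3329 CPM with anti-PD-1 and at 2080, 1502, 1292, 2201 and 2835 CPM with vehicle. Only combination replicate 2 stood apart on day 2.

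Col1a1 was highest in the same 2 anti-PD-1 libraries of day 5, but the order within the combination differed. There Col1a1 peaked in replicate 1, which had the lowest Col1a2 of that group, and Col1a2 peaked in replicate 3. On day 5 Col1a1 stood at 4660, 2239, 3181, 4341 and 3675 CPM in the combination, at 1721, 1527, 3496, 4372 and 5197 CPM with EPAT, at 1040, 1629, 2212, 9283 and 7364 CPM with anti-PD-1 and at 1426, 1786, 4503, 1022 and 2567 CPM with vehicle. All groups overlapped on day 5, and the lowest and the highest library among the treated groups were both anti-PD-1 tumours. The ratio of Col1a1 to Col1a2 tags was 0.703 ± 0.193 (SD, n = 39) and ran from 0.359 in combination day 5 replicate 3 to 1.24 in vehicle day 5 replicate 5.

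Col3a1 encodes the single chain of type III collagen, which is laid down with type I in young and healing stroma. It averaged 2696 ± 472 CPM in the combination, 2765 ± 850 CPM with EPAT, 3391 ± 2586 CPM with anti-PD-1 and 2272 ± 875 CPM with vehicle on day 5 (SD, n = 5 each). On day 2 the means were 2068 ± 1649 CPM, 1828 ± 437 CPM, 2220 ± 625 CPM (n = 4) and 1676 ± 198 CPM in the same order. Its tags per Col1a1 tag averaged 0.933 ± 0.256 on day 5 (n = 20) and 1.15 ± 0.218 on day 2 (n = 19), ranges that overlapped and were not tested. The treated groups had 0.781 ± 0.190 (combination), 0.941 ± 0.251 (EPAT) and 0.880 ± 0.146 (anti-PD-1) on day 5 and 1.05 ± 0.136, 1.16 ± 0.256 and 1.27 ± 0.160 on day 2, while vehicle tumours had 1.13 ± 0.335 on day 5 and 1.13 ± 0.287 on day 2.

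Types V and XI are minor fibrillar collagens that seed and thin the fibrils of types I and II. Col5a1 ran from 127 to 756 CPM over the 39 libraries, Col5a2 from 92.8 to 584 CPM and Col5a3 from 54.2 to 283 CPM, the last with its peak in combination day 2 replicate 2 and not in the anti-PD-1 libraries that led the others. Col11a1 ran from 1.74 to 34.7 CPM, and Col11a2 never passed 2.38 CPM. Col27a1, a fibrillar collagen of cartilage, was steady at 27 to 101 CPM, while Col24a1, known from bone, was at 0 in 1 library and reached 10.2 CPM in anti-PD-1 day 5 replicate 4. Of the cartilage and tendon markers, the matrix genes Acan and Comp were undetected in 28 and 31 libraries. The transcription factor genes Sox9 and Scx had counts in every library, with means of 83.2 and 5.20 CPM.

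**Figure D2:**
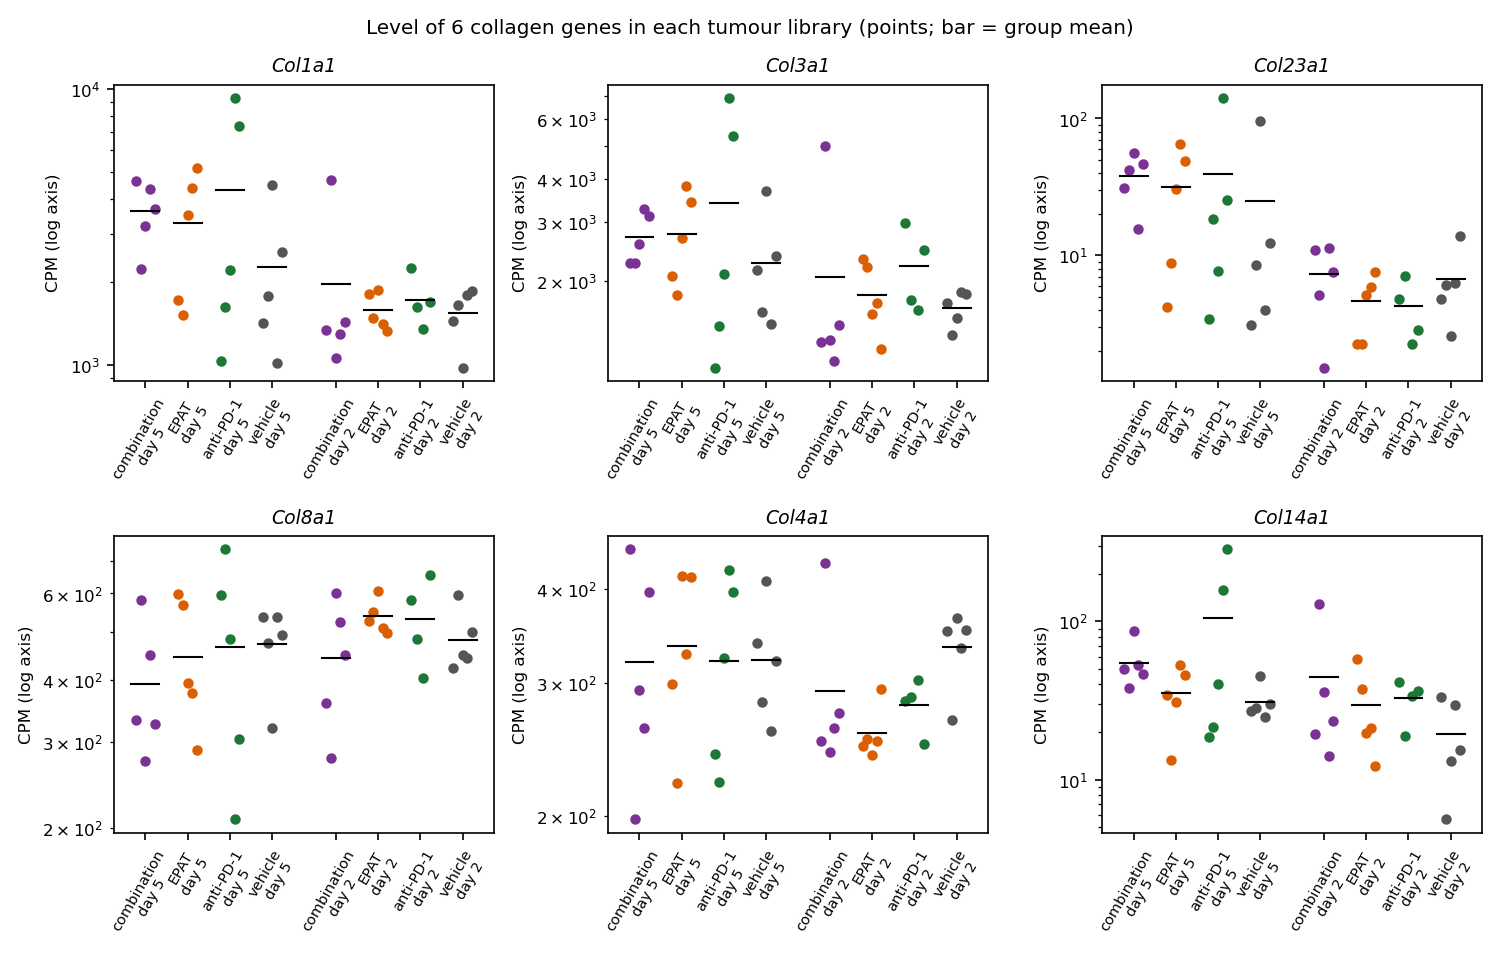
Levels of Col1a1, Col3a1, Col23a1, Col8a1, Col4a1 and Col14a1 in the 39 tumour libraries, in CPM on a log axis. Each point is a library and each bar the group mean, with treated groups left of vehicle and day 5 left of day 2. For Col1a1 the 2 high anti-PD-1 libraries of day 5 (9283 and 7364 CPM), the high vehicle library of day 5 (4503 CPM) and the high combination library of day 2 (4698 CPM) can be read off the points.

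Col4a1 had the smallest range of the members with a count in every library. Col4a1 and Col4a2, the chains of the common type IV network, ran from 198 to 451 CPM, a 2.27-fold range, and from 94.0 to 277 CPM. Their ratio was 1.97 ± 0.270 (SD, n = 39), a coefficient of variation of 13.7%, against 27.5% for Col1a1 over Col1a2. The starts of Col4a1 on the minus strand (11312826) and of Col4a2 on the plus strand (11312805) lie 21 bases apart on mouse chromosome 8 in GRCm38.p6, so the pair is transcribed away from a common stretch of DNA. Col4a5, a chain of the more restricted networks of kidney, lung and skin, ran from 2.69 to 29.8 CPM. It was lowest in anti-PD-1 day 5 replicate 4 (2.69 CPM), combination day 5 replicate 3 (2.96 CPM) and anti-PD-1 day 5 replicate 5 (3.54 CPM), which are also libraries of high Col1a2. Its neighbour Col4a6, whose start lies 1343 bases away on chromosome X, was at 0 in 13 libraries and reached at most 0.829 CPM.

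Col8a1 encodes the main chain of a short-chain collagen that forms hexagonal networks under endothelium and is made by smooth muscle and wounded tissue. On day 5 it stood at 332, 582, 274, 451 and 326 CPM in the combination, at 599, 568, 395, 376 and 288 CPM with EPAT, at 596, 737, 485, 209 and 304 CPM with anti-PD-1 and at 537, 476, 319, 537 and 493 CPM with vehicle. In each of the 4 groups the library with the most Col1a2 had the least Col8a1. Col8a1 amounted to 0.0151 tags per Col1a2 tag in anti-PD-1 day 5 replicate 4 and to 0.396 in vehicle day 2 replicate 2 at the other end. On day 2 its group means lay between 443 and 539 CPM. Col8a2, the partner chain, was scarce, with at most 5.78 CPM and no count in 5 libraries. Col10a1, the collagen of growth plate cartilage, had counts in 7 libraries, and anti-PD-1 day 2 replicate 1 held 3.00 CPM while the next had 0.512 CPM. The annotated 3′ end of Col10a1 overlaps Nt5dc1 on the other strand and that of Col9a3 overlaps Tcfl5, and the strand setting of the counting was not stated, so reads of these pairs cannot be told apart.

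Beaded filament collagen, type VI, forms fine filaments around cells from the chains of Col6a1 and Col6a2 with a longer chain, here mostly Col6a3. Col6a1 ran from 131 to 328 CPM and Col6a2 from 71.9 to 290 CPM, and their ratio was 1.53 ± 0.309. Col6a3 ran from 114 to 872 CPM. The ratio of Col6a3 to Col6a1 tags was 1.42 ± 0.809, a coefficient of variation of 57.0%. It was 0.349 in combination day 5 replicate 1 and 3.63 in combination day 2 replicate 2, so the long chain gene varied apart from Col6a1. Col6a6 was found in 35 libraries at a median of 0.317 CPM, with 5.78 CPM in anti-PD-1 day 5 replicate 5 and 2.48 CPM in combination day 2 replicate 2. Col6a4 and Col6a5 stayed at or under 1.81 CPM and 1.12 CPM.

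The fibril-associated class holds collagens that sit on the surface of fibrils. Col16a1 led it with 106 to 372 CPM. Col12a1, which bridges type I fibrils in tissue under tension, stood on day 5 at 305, 196, 320, 308 and 252 CPM in the combination, at 92.1, 147, 198, 325 and 362 CPM with EPAT, at 63.0, 157, 107, 612 and 316 CPM with anti-PD-1 and at 142, 142, 416, 62.7 and 123 CPM with vehicle. The combination was the most even of these groups, and all 5 of its libraries exceeded 4 of the 5 vehicle libraries. On day 2 Col12a1 ranged from 42.6 to 196 CPM. Col14a1, a fibril collagen of mature connective tissue, ran from 5.62 to 285 CPM and was highest in anti-PD-1 day 5 replicates 5 (285 CPM) and 4 (159 CPM). Col9a3, Col20a1 and Col19a1 were scarce, with highest values of 1.44, 1.04 and 1.73 CPM.

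Multiplexins are basement membrane proteins with interrupted helices, and Col18a1 is the source of the fragment endostatin. Col18a1 spanned a 2.83-fold range, at 71.0 to 201 CPM, and Col15a1 ran from 22.7 to 125 CPM with its peak in combination day 2 replicate 2. Among transmembrane collagens Col23a1 had the widest range of the members with a count in every library, from 1.52 to 141 CPM, a 93.1-fold range. On day 5 it stood at 31.2, 42.1, 55.9, 15.6 and 46.4 CPM in the combination, at 4.23, 8.85, 30.3, 64.6 and 49.0 CPM with EPAT, at 3.43, 18.6, 7.75, 141 and 25.2 CPM with anti-PD-1 and at 3.10, 8.53, 96.4, 3.97 and 12.3 CPM with vehicle. The combination lay above 4 of the 5 vehicle libraries, as for Col1a2 and Col12a1 but not for Col1a1 or Col5a1. Vehicle replicate 3 exceeded every treated library in Col23a1 but anti-PD-1 replicate 4. Col13a1, a collagen of adhesion sites and the nerve-muscle junction, stayed at 1.89 to 9.02 CPM, and Col25a1 never passed 0.862 CPM.

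Col17a1, of the transmembrane class, anchors basal keratinocytes to their basement membrane. It reached 6.16 CPM in combination day 5 replicate 3 and 2.12 CPM in vehicle day 2 replicate 2, against a median of 0.171 CPM over all libraries. The same 2 libraries had the highest sums of keratinocyte markers, 106 and 131 CPM. Col7a1, the anchoring fibril collagen of skin, did not share these peaks. It ran from 7.06 to 86.4 CPM, with the highest value in combination day 5 replicate 1. Col28a1, known from peripheral nerve, reached 6.13 CPM in EPAT day 2 replicate 1, and Col26a1 was at 0 in 23 libraries.

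**Figure D3:**
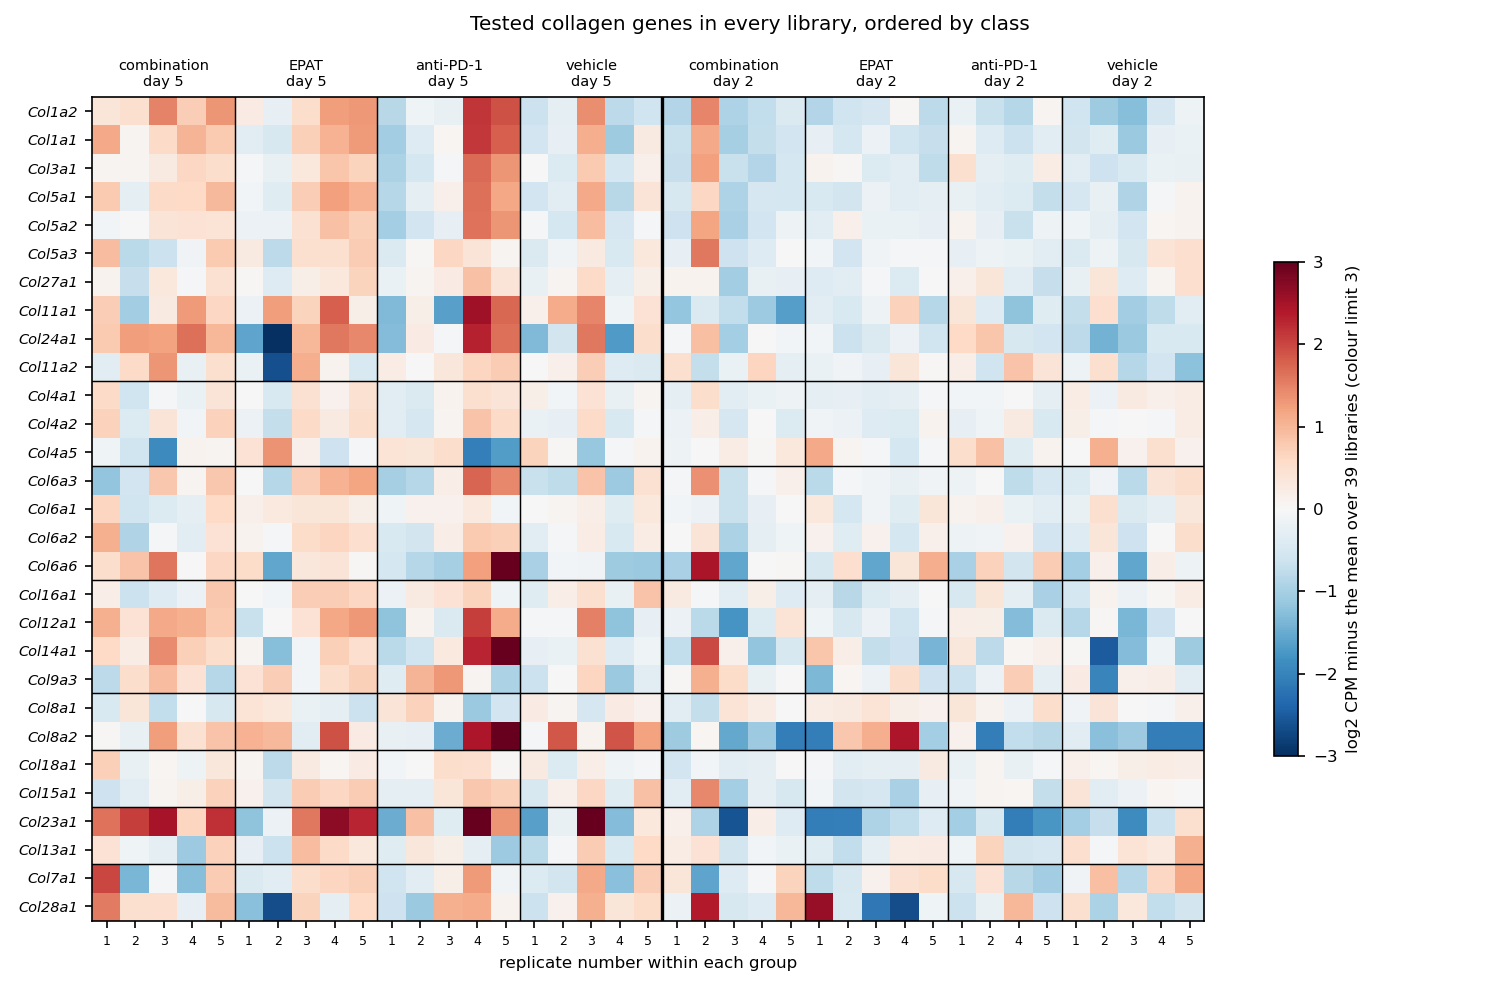
The 29 tested collagen genes (down) in the 39 libraries (across), coloured by log2 CPM minus the mean of the gene, and ordered by class and group with treated tumours left of vehicle and day 5 left of day 2. Most fibrillar genes are high in the same libraries, including anti-PD-1 day 5 replicates 4 and 5 and combination day 2 replicate 2, and Col8a1 and Col4a5 are low in the anti-PD-1 pair.

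Treatments were compared with a fit of edgeR's quasi-likelihood test to all 39 libraries and 15070 genes, in which 29 of the 38 members passed the filter on low counts. A gene was called when its Benjamini-Hochberg adjusted p over all 15070 genes was under 0.05. Col10a1, Col17a1, Col20a1, Col6a4, Col19a1, Col25a1, Col4a6, Col6a5 and Col26a1 were not tested. Fold changes are log2 values ± SE. The comparisons with vehicle share the vehicle libraries of a day.

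On day 5 no collagen gene passed in any treatment against vehicle, although the leading fibrillar genes had higher fitted values in all 3 treatments. In the combination 0 of 29 members were called against 0.0265% of all genes, and at an unadjusted p under 0.05 it was 0 of 29 against 16.5%. Col1a2 was at 0.86 ± 0.50 (adjusted p = 0.375), Col1a1 at 0.68 ± 0.46 (0.452) and Col3a1 at 0.25 ± 0.38 (0.768). The smallest p belonged to Col6a6, at 2.16 ± 1.07 (0.306), and Col24a1 was at 1.05 ± 0.66 (0.422). The median of the 29 members was 0.24, with 20 at positive values, and that of all genes -0.0084. By DESeq2 0 members were called against 0.431% of all genes, by limma-voom with quality weights 0 against 0.0265% and by limma-trend on the deposited log2 values 0 against 0.0373%.

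With EPAT on day 5 0 of 29 members were called against 0% of all genes, and 0 against 1.7% at an unadjusted p under 0.05. Col1a2 was at 0.64 ± 0.49 and Col1a1 at 0.53 ± 0.45, and the smallest p values belonged to Col9a3 (0.86 ± 0.58), Col6a2 (0.42 ± 0.29) and Col6a3 (0.64 ± 0.47), all with an adjusted p of 1.00. The member median was 0.21, with 25 of 29 genes at positive values, and that of all genes was -0.0080. DESeq2 and limma-voom called 0 members against 0.0199% each, and limma-trend 0 against 0%.

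With anti-PD-1 on day 5 0 of 29 members were called against 0% of all genes, and 3 of 29 had an unadjusted p under 0.05 against 7.15% of all genes. These were Col6a6 (3.19 ± 1.05), Col14a1 (1.76 ± 0.60) and Col1a1 (0.93 ± 0.46), each with an adjusted p of 0.645. Col1a2 was at 0.98 ± 0.50 and Col3a1 at 0.58 ± 0.38. All 10 fibrillar members had positive values, with a median of 0.53, but the signs of Col1a1 and Col3a1 depended on the method. Limma-voom with quality weights, which gives deviating libraries less weight, put Col1a1 at -0.018 and Col3a1 at -0.20. DESeq2 called 0 members against 0.00664% of all genes, and limma-voom and limma-trend 0 against 0% each. Replicates 4 and 5 were the high libraries of the group. In those 2 libraries the summed markers of macrophages were 7764 and 12435 CPM, of endothelium 543 and 545 CPM and of pericytes and smooth muscle 352 and 1173 CPM, while the vehicle libraries of day 5 had 2305 to 4762 CPM, 175 to 486 CPM and 92.6 to 242 CPM. Their summed fibroblast markers were 4154 and 2496 CPM, against 3934 to 6606 CPM with vehicle. That sum did not go up with the collagens, but it mainly follows S100a4. Over all libraries S100a4 had a mean of 3505 CPM and the next gene of the list, Fbln2, 276 CPM. T cell markers stood at 218 and 387 CPM, against 55.2 to 137 CPM with vehicle, and skeletal muscle markers at 1697 and 13674 CPM, against 530 to 1955 CPM. The pericyte and smooth muscle list includes Des, a gene also of skeletal muscle, which reached 500 CPM at its highest, so that sum is not specific. The part of these cells in the collagen values was not tested.

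On day 2 no member passed either. Called members were 0 of 29 in the combination, with EPAT and with anti-PD-1, each against 0% of all genes. At an unadjusted p under 0.05 there was 1 member in the combination against 10.2% of all genes, 1 with EPAT against 6.23% and 0 with anti-PD-1 against 7.12%. In the combination Col18a1 was at -0.41 ± 0.18 (adjusted p = 0.405), Col14a1 at 1.18 ± 0.60 and Col28a1 at 1.23 ± 0.83. Col18a1 had 81.5, 115, 97.2, 101 and 121 CPM in the combination and 136, 127, 138, 142 and 141 CPM with vehicle. These values did not overlap, in a gene named for the smallest p of 29 members. The share of all genes without overlap is not given. Limma-voom with quality weights called this 1 member (-0.52, adjusted p = 0.0287) against 3.76% of all genes. In the same comparison DESeq2 called 0 against 0.564% and limma-trend 0 against 0.00621%. With EPAT Col8a2 was at 3.11 ± 1.03 (0.697), a gene with at most 3.54 CPM on that day, Col4a1 at -0.38 ± 0.20 and Col13a1 at -0.66 ± 0.35. With anti-PD-1 the smallest p values belonged to Col7a1 (-0.88 ± 0.56), Col24a1 (1.11 ± 0.72) and Col11a2 (0.80 ± 0.53), all with an adjusted p of 0.773. DESeq2 called 0 members with EPAT against 0.00664% and with anti-PD-1 against 0.0133%, limma-voom 0 against 0% and 0.0265%, and limma-trend 0 against 0% in both.

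No member passed between the combination and either single treatment. Against EPAT on day 5 it was 0 of 29 against 0% of all genes, with Col4a5 (-0.74 ± 0.42), Col16a1 (-0.40 ± 0.26) and Col28a1 (0.98 ± 0.83) first by p. Against anti-PD-1 on day 5 it was 0 of 29 against 0.0199%, with Col14a1 (-0.93 ± 0.59), Col8a2 (-1.25 ± 0.84) and Col6a3 (-0.54 ± 0.47) first, 3 values that turn positive under limma-voom with quality weights. On day 2 the counts were 0 of 29 against 0% of all genes in both. Col8a2 (-2.67 ± 0.98), Col15a1 (0.59 ± 0.34) and Col11a1 (-0.88 ± 0.56) came first against EPAT and Col5a3 (0.55 ± 0.36), Col6a3 (0.65 ± 0.50) and Col11a1 (-0.70 ± 0.59) against anti-PD-1. Col15a1 and Col5a3 turned to -0.054 and -0.071 without combination day 2 replicate 2. At an unadjusted p under 0.05 these 4 comparisons held 0 members against EPAT on day 5 (12.7% of all genes), 0 against anti-PD-1 on day 5 (6.31%), 1 against EPAT on day 2 (7.36%) and 0 against anti-PD-1 on day 2 (4.35%). DESeq2 called 0 members against 0.159%, 0.119%, 0.133% and 0% of all genes in the same order, limma-voom 0 against 0.0199%, 0.206%, 0.995% and 4.59%, and limma-trend 0 against 0%, 0.0249%, 0% and 0%.

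Averaging over days and over the other agent left Col14a1 nearest to the threshold. The 4 groups with anti-PD-1 differed from the 4 without in 0 of 29 members against 2.56% of all genes, and 4 members against 23% had an unadjusted p under 0.05. Col14a1 was at 0.92 ± 0.30 (adjusted p = 0.0729), Col6a6 at 1.37 ± 0.52 (0.111) and Col24a1 at 0.76 ± 0.34 (0.174). Col14a1 passed with DESeq2 (0.94, adjusted p = 0.0375, the 1 member called against 7.03% of all genes) and when any of vehicle day 5 replicate 3, anti-PD-1 day 5 replicates 1 or 2, or EPAT day 2 replicate 1 was left out. The 4 groups with EPAT differed from the 4 without in 0 of 29 members against 0% of all genes, with 0 against 5.64% at an unadjusted p under 0.05 and fitted values from Col27a1 (-0.15 ± 0.12), Col18a1 (-0.11 ± 0.09) and Col1a2 (0.27 ± 0.25) first. Col1a1 was at 0.12 ± 0.23. For EPAT DESeq2 called 0 members against 0.0199%, limma-voom 0 against 4.63% and limma-trend 0 against 0%, and for anti-PD-1 limma-voom called 0 against 8.37% and limma-trend 0 against 1.3%.

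Tests of whether effects combine or change with time also called 0 of 29 members, each against 0% of all genes. The interaction between the agents had its smallest p for Col6a3 (-1.18 ± 0.66), Col6a6 (-2.31 ± 1.43) and Col9a3 (-1.11 ± 0.81) on day 5 and for Col8a2 (-3.64 ± 1.56), Col4a1 (0.44 ± 0.28) and Col5a3 (0.73 ± 0.49) on day 2. The effect on day 5 minus that on day 2 was led by Col18a1 in the combination (0.61 ± 0.25, adjusted p = 0.999), by Col8a2 with EPAT (-3.40 ± 1.32, 0.942) and by Col18a1 with anti-PD-1 (0.49 ± 0.26, 1.00). At an unadjusted p under 0.05 these 5 tests held 0 members for the interaction on day 5 (3.1% of all genes), 1 on day 2 (7.28%), 1 for the change with time in the combination (3.5%), 1 with EPAT (5.22%) and 0 with anti-PD-1 (3.34%). In these 5 tests the share of all genes called was 0% to 0.0265% by DESeq2, 0% to 0.279% by limma-voom and 0% by limma-trend. DESeq2 and limma-trend on the deposited log2 values called 0 members in every comparison named so far but the DESeq2 call of Col14a1, and limma-voom with quality weights only Col18a1.

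**Figure D4:**
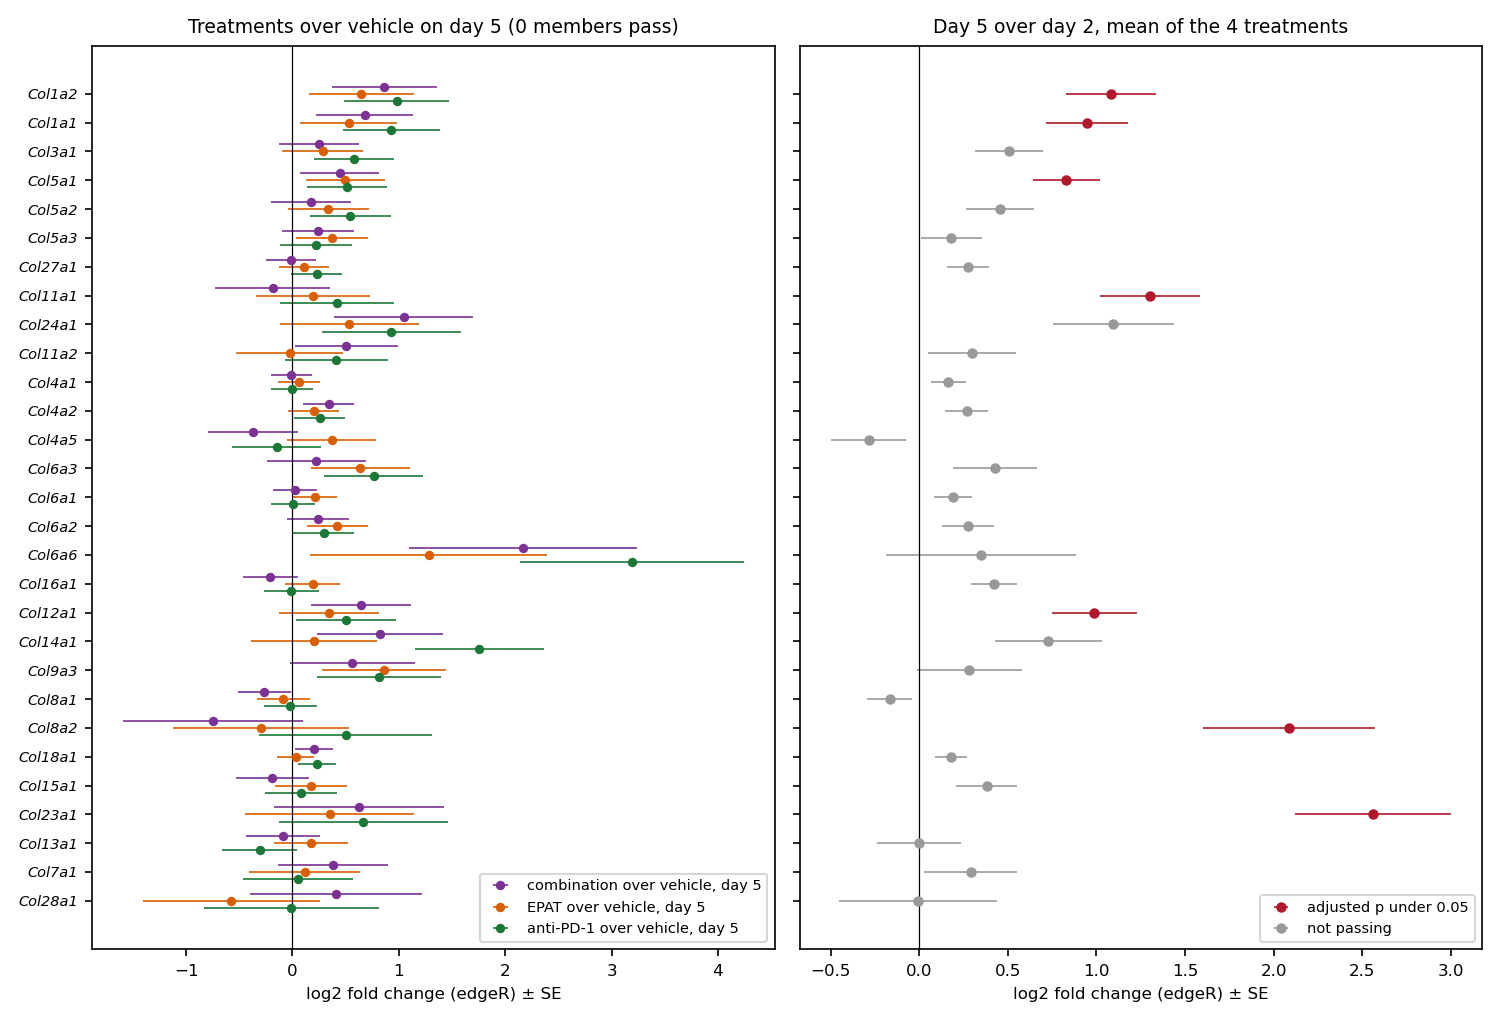
Fitted log2 fold changes of the 29 tested collagen genes with SE as bars. The left panel gives the combination, EPAT and anti-PD-1 over vehicle on day 5, in which no gene passed, and the right panel gives day 5 over day 2 averaged over the 4 treatments, with the 7 genes that passed marked. In the right panel 25 of 29 genes lie above 0.

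Time under treatment went with the clearest change. Within a treatment, day 5 against day 2 called 0 of 29 members in the combination against 0.0133% of all genes, and 0 of 29 with EPAT, with anti-PD-1 and with vehicle against 0% each. Members with an unadjusted p under 0.05 were 6 of 29 in the combination against 11.7% of all genes, 6 with EPAT against 7.23%, 8 with anti-PD-1 against 6.98% and 3 with vehicle against 5.49%, all of them higher on day 5. Col23a1 was at 2.38 ± 0.85 in the combination (adjusted p = 0.309), 2.76 ± 0.87 with EPAT (0.569), 3.22 ± 0.97 with anti-PD-1 (0.655) and 1.88 ± 0.84 with vehicle (0.896). Next by p were Col11a1 (1.55 ± 0.56) and Col12a1 (1.30 ± 0.47) in the combination, Col16a1 (0.79 ± 0.26) and Col5a1 (0.99 ± 0.37) with EPAT, Col8a2 (2.88 ± 1.02) and Col1a1 (1.32 ± 0.50) with anti-PD-1, and Col8a2 (3.35 ± 1.03) and Col11a1 (1.13 ± 0.55) with vehicle. Limma-voom with quality weights called 8 members with EPAT against 7.75% of all genes and 0 in the combination (0.179%), with anti-PD-1 (0.0133%) and with vehicle (0%), and put Col1a1 at -0.051 with anti-PD-1. DESeq2 called 0 against 0.226% in the combination, 0.0398% with EPAT, 0.073% with anti-PD-1 and 0.0664% with vehicle, and limma-trend called 0 against 0.0124%, 0%, 0% and 0.00621% in the same order.

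The mean of the 4 day 5 groups against the mean of the 4 day 2 groups, a comparison added after the values were seen, called 7 of 29 members, all higher, against 2.2% of all genes (1.63% higher). At an unadjusted p under 0.05 there were 15 of 29 against 17%. DESeq2 called 9 against 4.44%, limma-voom with quality weights 6 against 3.09% and limma-trend 3 against 0.851%. The 7 were the fibrillar genes Col1a1, Col1a2, Col5a1 and Col11a1, the fibril-associated Col12a1, the transmembrane Col23a1 and the scarce Col8a2.

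Col1a2 had 1769, 4222 and 13843 CPM (lowest, median and highest) in 20 day 5 libraries and 1292, 2079 and 8723 CPM in 19 day 2 libraries, a log2 fold change of 1.08 ± 0.25 (adjusted p = 0.0206). Col1a1 had 1021, 2874 and 9283 CPM on day 5 and 981, 1486 and 4698 CPM on day 2, a change of 0.95 ± 0.23 (0.0259). The days overlapped in both genes, with 16 and 17 of 20 day 5 libraries above the day 2 median. Col5a1 had 134, 337 and 756 CPM on day 5 and 127, 181 and 369 CPM on day 2, a change of 0.83 ± 0.19 (0.0180). Col11a1 had 1.76, 8.43 and 34.7 CPM on day 5 and 1.74, 4.15 and 9.46 CPM on day 2, a change of 1.30 ± 0.28 (0.0121). Of the 20 day 5 libraries, 8 exceeded every day 2 library in Col5a1 and 8 in Col11a1, against 3 in Col1a2 and 3 in Col1a1.

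Col12a1 had 62.7, 197 and 612 CPM on day 5 and 42.6, 110 and 196 CPM on day 2, a change of 0.99 ± 0.24 (0.0249), with 11 of 20 day 5 libraries above every day 2 library. Col23a1 had 3.10, 21.9 and 141 CPM on day 5 and 1.52, 5.17 and 13.9 CPM on day 2, a change of 2.56 ± 0.44 (0.00165), with 12 of 20 above every day 2 library. Col8a2 had 0.0799, 0.929 and 5.78 CPM on day 5 and 0, 0.166 and 3.54 CPM on day 2, a change of 2.09 ± 0.49 (0.0201), at levels of a few counts per library. Col23a1 combined the lowest adjusted p with the largest fitted change of the 7.

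The tested members that did not pass included Col3a1 (0.51 ± 0.19, adjusted p = 0.158), Col16a1 (0.42 ± 0.13, 0.0776), Col15a1 (0.38 ± 0.17, 0.253), Col6a1 (0.19 ± 0.11, 0.356), Col18a1 (0.18 ± 0.09, 0.299) and Col4a1 (0.16 ± 0.10, 0.404). The same held for Col6a3 (0.43 ± 0.24, 0.356), Col5a2 (0.45 ± 0.19, 0.213), Col4a2 (0.27 ± 0.12, 0.253), Col6a2 (0.27 ± 0.15, 0.336), Col5a3 (0.18 ± 0.17, 0.632), Col27a1 (0.27 ± 0.12, 0.232) and Col14a1 (0.73 ± 0.30, 0.201). Col8a1 was at -0.17 (0.521) and Col4a5 at -0.29 (0.513). Col3a1 passed once combination day 2 replicate 2 was left out (0.66, adjusted p = 0.0255), when 9 members were called. That library also had the lowest T cell marker sum of the 39, 11.7 CPM against 57.3 to 156 CPM in the other libraries of its group, and the highest sum of Schwann cell markers, 254 CPM. The part of these in the result was not tested. The count was also 9 without anti-PD-1 day 5 replicate 1, and it was 5 without anti-PD-1 day 5 replicate 4 or without vehicle day 5 replicate 3, where Col1a1 and Col12a1 no longer passed. It remained 7 when any of the 3 libraries with title numbers of another group was left out.

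Lung transcripts were more often present on day 2, and a term for their presence, added after the values were seen, left 2 members called, Col11a1 (1.27, adjusted p = 0.0290) and Col23a1 (2.47, 0.00871), against 0.63% of all genes. The other 5 kept their direction at 1.02 for Col12a1 (adjusted p = 0.0615), 0.90 for Col1a2 (0.0704), 0.86 for Col1a1 (0.0780), 0.74 for Col5a1 (0.0660) and 1.92 for Col8a2 (0.0562). Within libraries that held lung transcripts (9 on day 5, 14 on day 2) the mean log2 level of Col1a2 was 0.78 higher on day 5 and that of Col23a1 1.63 higher. Within libraries without them (11 on day 5, 5 on day 2) these differences were 0.89 and 2.28. Col12a1 was 0.56 higher in libraries with and 1.43 higher in libraries without lung transcripts. Col1a1 was 0.62 and 0.91 higher, Col5a1 0.51 and 0.81, Col11a1 1.18 and 0.81, and Col8a2 1.58 and 1.23. These 7 genes were chosen for their rise over the same libraries, so a shared direction is no separate support. Some members that were not called differed in direction, among them Col6a2 (-0.038 with and 0.545 without) and Col7a1 (-0.264 and 0.58). The part of the lung transcripts in the differences was not tested.

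Chains of a collagen type varied together across the 39 libraries, with exceptions. Correlations are of edgeR log2 CPM with a prior count of 2, and 18 pairs were computed, with 2-sided permutation tests of 100000 resamples and Benjamini-Hochberg adjustment over the 18. Col1a1 and Col1a2 had r = 0.908 (rho = 0.828), Col5a1 and Col5a2 r = 0.869 (rho = 0.745), Col4a1 and Col4a2 r = 0.866 (rho = 0.852) and Col6a1 and Col6a2 r = 0.764 (rho = 0.753). Each of these had an adjusted permutation p of 3.6e-05 for both measures, which rests on 1e-05, the smallest p that 100000 permutations can give. Without the 2 libraries farthest on the x axis r was 0.872, 0.827, 0.856 and 0.697, and within libraries with lung transcripts it was 0.889, 0.837, 0.833 and 0.725, within those without 0.919, 0.898, 0.862 and 0.816.

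Col1a1 and Col3a1, of different types, were as close as the chains of type I (r = 0.908, rho = 0.876, adjusted permutation p = 3.6e-05). Col6a3 did not follow Col6a1 (r = 0.227, rho = 0.222, adjusted permutation p = 0.200 and 0.264). The chain genes Col8a1 and Col8a2 had r = -0.310 (rho = -0.189, adjusted permutation p = 0.0764 and 0.320), and Col4a5 and Col4a6 r = 0.0686 (rho = -0.00397, adjusted permutation p = 0.764 and 0.981). Of genes that mark cell types, Col15a1 went with the endothelial gene Pecam1 (r = 0.545, rho = 0.601, adjusted permutation p = 0.000833 and 0.0003, r = 0.720 without 2 libraries), with r = 0.651 on day 5 and 0.220 on day 2 and r = 0.665 with and 0.445 without lung transcripts. Col4a1 and Pecam1 had r = 0.374 (rho = 0.339, adjusted permutation p = 0.0336 and 0.0623, r = 0.452 without 2 libraries), with r = 0.464 on day 5 and -0.029 on day 2. Col18a1 and Pecam1 had r = 0.275 (rho = 0.207, adjusted permutation p = 0.117 and 0.284), with r = 0.293 on day 5 and -0.039 on day 2. Col1a1 had r = 0.487 (rho = 0.492, adjusted permutation p = 0.00352 and 0.00371, r = 0.347 without 2 libraries) with Pdgfrb, a receptor of fibroblasts and pericytes. Within days that r was 0.489 on day 5 and 0.114 on day 2, and it was 0.630 with and 0.281 without lung transcripts. Col17a1 and the keratin gene Krt14 had r = 0.682 (adjusted permutation p = 0.000206) but rho = 0.262 (0.176), and r = 0.239 without the 2 farthest libraries, so that relation rests on those libraries. For Col7a1 with Krt14, Col6a1 with Adipoq and Col1a1 with the muscle gene Acta1 r was 0.0324, -0.024 and 0.338 (adjusted permutation p = 0.884, 0.884 and 0.0528).

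**Figure D5:**
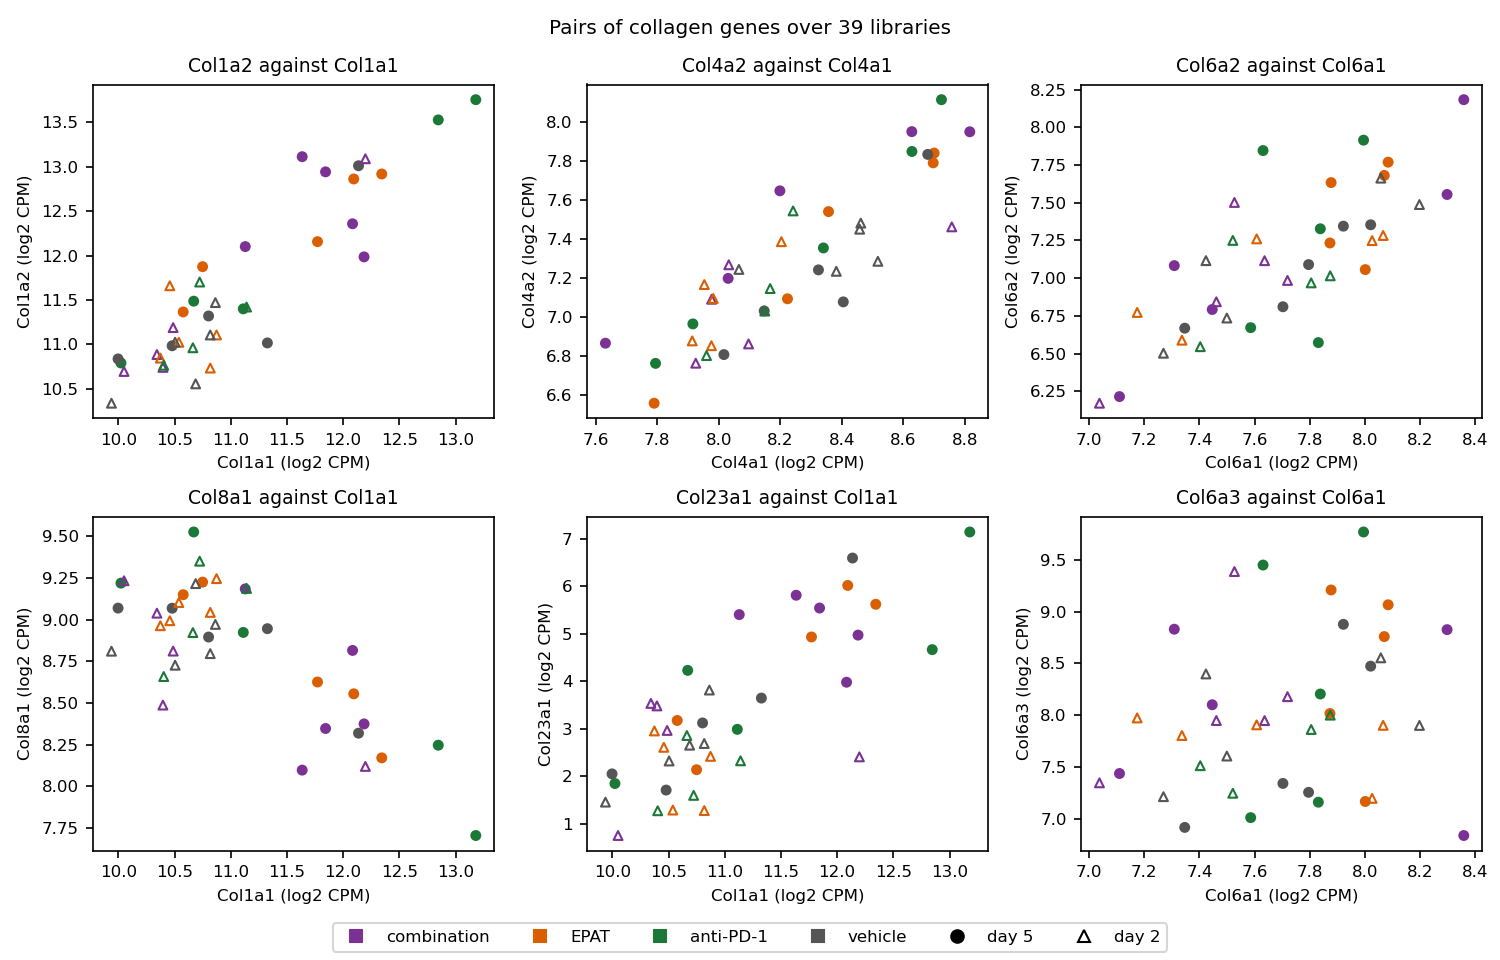
Pairs of collagen genes over 39 libraries, in log2 CPM on both axes, with a point per library coloured by treatment and shaped by day. Col1a1 rises with its partner chain (r = 0.908), Col6a3 spreads widely at a given Col6a1 (r = 0.227), and Col8a1 falls as Col1a1 rises (r = -0.753).

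The genes most like Col1a1 were then listed over the 28 other tested members, a measure added after the values were seen. The closest were Col5a1 (r = 0.959, rho = 0.909), Col1a2, Col3a1 and Col5a2 (r = 0.901, rho = 0.823), followed by Col12a1 (r = 0.818, rho = 0.714), Col24a1 (r = 0.795, rho = 0.784) and Col23a1 (r = 0.777, rho = 0.677). The adjusted permutation p over the 28 was 1.9e-05 for each r and 3.1e-05 for each rho, and without the 2 libraries farthest in Col1a1 r stayed between 0.744 and 0.949. For Col23a1 the relation was r = 0.827 on day 5 (n = 20) and 0.171 on day 2 (n = 19), and for Col12a1 0.914 and 0.281, so these genes followed Col1a1 mainly among the later tumours. Whether the days differ in these relations was not tested.

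Col8a1 and Col4a5 ran against Col1a1. Col8a1 had r = -0.753 (rho = -0.523, adjusted permutation p = 1.9e-05 and 0.00125) and -0.664 without the 2 farthest libraries, with -0.862 on day 5 and -0.376 on day 2. Col4a5 had r = -0.572 (adjusted permutation p = 0.000339) but rho = -0.312 (0.0608) and -0.353 without the 2 farthest, so it rests largely on the anti-PD-1 libraries of day 5 named above. Col13a1, Col11a2 and Col9a3 had r of 0.119, 0.241 and 0.104 (adjusted permutation p = 0.489, 0.152 and 0.529) and rho of 0.244, 0.124 and 0.105 (0.147, 0.468 and 0.523).

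Genes that build, cut and bind collagen moved with time in small numbers. In the average of day 5 against day 2, 1 of 20 tested genes of collagen synthesis and secretion rose, P4ha3, a subunit of the prolyl hydroxylase that stabilises the helix (0.93 ± 0.22, adjusted p = 0.0234). Of 19 genes of trimming and cross-linking 2 rose, the fibril-binding proteoglycans Bgn (1.24 ± 0.27, 0.0123) and Lum (1.18 ± 0.33, 0.0448). Of 18 genes of breakdown 1 rose, the gelatinase gene Mmp2 (1.05 ± 0.25, 0.0211). Of 10 receptors 1 rose, Itga11, the integrin chain by which fibroblasts bind type I collagen (2.50 ± 0.47, 0.00392). Of 16 TGF-β genes 2 rose, the matrix protein gene Ltbp2 (2.01 ± 0.30, 0.000466) and the receptor gene Tgfbr1 (0.21 ± 0.06, 0.0378), and of 14 partners of type IV collagen 1 rose, Nid2, a linker of basement membranes (0.80 ± 0.22, 0.0387). No gene of these 6 lists fell, and the share called among all genes was 2.2%. Over these lists and the marker lists together it was 15 of 177 genes, 8.47%.

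A few cell type markers passed in the same comparison, and most genes of each list did not. Of 12 fibroblast genes 3 rose, Fbln1 (1.27 ± 0.25, adjusted p = 0.00655), Cxcl12 (1.25 ± 0.33, 0.0351) and Pdgfra (0.67 ± 0.18, 0.0418). The sum of the 12 spanned 2496 to 6606 CPM on day 5 and 2811 to 5845 CPM on day 2, and it mainly follows S100a4 (mean 3505 CPM). Of 8 pericyte and smooth muscle genes 1 rose, Acta2 (1.43 ± 0.29, 0.00736), of 8 endothelial genes 1, Cdh5 (0.54 ± 0.13, 0.0234), and of 8 macrophage genes 1, Apoe (0.93 ± 0.24, 0.0314). Of 8 adipocyte genes 1 fell, Lep (-2.35 ± 0.58, 0.0267). No gene passed among the keratinocyte, skeletal muscle, cartilage and tendon, Schwann cell, melanocyte, lung, T cell, and B and plasma cell markers. Whether these cells account for any part of the collagen differences was not tested.

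In the groups with anti-PD-1 against those without, 5 of 177 tested list genes were called, 2.82% against 2.56% of all genes, a share near that of all genes. Mmp12, the macrophage elastase, was higher (1.09 ± 0.31, adjusted p = 0.0499), as were Pi16 of fibroblasts (1.04 ± 0.30, 0.0499), Mrc1 of macrophages (0.72 ± 0.17, 0.0230) and Cd2 of T cells (0.84 ± 0.22, 0.0375), and Tgfbr1 was lower (-0.28 ± 0.06, 0.0107). In the other 20 comparisons 0 genes of these lists passed. The nearest was Serpinh1, the chaperone of collagen folding, which on day 5 was at -1.27 ± 0.26 in the combination against anti-PD-1 and at -0.84 ± 0.26 against vehicle (adjusted p = 0.179), neither past the threshold.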

How the data were processed

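Bulk RNA of 39 tumours was measured with a QuantSeq 3′ forward kit from 500 ng of RNA, per the labels' protocols. The authors deposited raw counts by Ensembl identifier, with no normalization, and log2 expression values of 16095 genes. Per the submitters' processing notes the tools were bcl2fastq, STAR, featureCounts and limma with builds mm10 and GRCm38; no version and no strand setting is given in the sources used here. Symbols came from the GENCODE annotation of GRCm38 and matched 37693 of 39179 identifiers.

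Counts were fitted with edgeR 4.0.16 in R 4.3.3 (TMM, filterByExpr with minimum count 10 and total 15, robust quasi-likelihood, 1 mean per group, 31 residual degrees of freedom, biological coefficient of variation 0.323), which was tested on simulated data. Alternatives were RLE factors, no filter, DESeq2 1.42.0, limma 3.58.1 (voom with quality weights, and trend on the deposited log2 values), fits of only the groups compared, a replicate block, and leaving out each library. The SE is the fold change over the square root of F. CPM levels of libraries and groups were scaled by the TMM factors, over totals of the tested genes. The mean CPM that chose the members used unscaled library totals. The members and lists were chosen with earlier results of these data known. Named in each comparison were called members, or the 3 with the smallest p, plus fixed major collagens; of lists, called genes or those with the smallest p.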

Additional observations from a re-analysis of the deposited data

Results flagged for a closer look

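Single libraries stood far from the rest of their group in 29 of 232 tests of a collagen gene within a group of 4 or 5 libraries, where the gap to the nearest library was too large a share of the range. For independent, normally distributed values such a gap arises in about 1 of 20 groups. CPM values were not transformed here and the genes of a library varied together, so the 29 cannot be set against that rate. Combination day 2 replicate 2 accounted for 12, each time as the highest library: Col1a2 at 8723 CPM (nearest 2332), Col1a1 at 4698, Col3a1 at 5011, Col4a1 at 432.7, Col6a3 at 669.1, Col5a1 at 369.4, Col5a2 at 424.6, Col5a3 at 282.7, Col15a1 at 125.2, Col14a1 at 129 CPM, Col28a1 at 5.225 and Col6a6 at 2.475 CPM. In the same library Col12a1 (83.4 CPM), Col23a1 (5.13 CPM) and Col7a1 (7.06 CPM) did not stand out upwards. Its T cell marker sum, 11.7 CPM, was the lowest of the 39 libraries.

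Vehicle day 5 replicate 3 was highest for Col1a2 (8261 CPM, nearest 2553), Col5a2 (353.8), Col12a1 (416.1), Col14a1 (45.09) and Col23a1 (96.41) and lowest for Col8a1 (319.3 CPM, nearest 476.2). Anti-PD-1 day 5 replicate 4 was highest for Col23a1 (141.1 CPM) and Col7a1 (51.71 CPM), and replicate 5 for Col6a6 (5.781 CPM). In EPAT day 2, replicate 1 was highest for Col4a5 (25.78 CPM) and Col28a1 (6.131 CPM) and lowest for Col6a3 (146.7 CPM), replicate 2 was highest for Col5a2 (208.9 CPM) and lowest for Col5a3 (63.36 CPM), and replicate 5 was highest for Col4a1 (294.7 CPM). EPAT day 5 replicate 2 was lowest for Col18a1 (71.04 CPM), and anti-PD-1 day 2 replicate 4 was highest for Col28a1 (1.914 CPM). No cause was tested for any of these.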

How the results depend on the processing

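The count of called members stayed within 1.5 times its value in 167 cases under another setting and moved in 6, and it stayed in 348 fits without 1 library and moved in 4. Limma-voom with quality weights called 1 member (Col18a1) for the combination against vehicle on day 2 and 8 for day 5 against day 2 with EPAT. For groups with anti-PD-1 against those without, DESeq2 called 1 (Col14a1), and fits without 1 library called 0 to 1. For the average of day 5 against day 2, limma-trend called 3, the replicate block 4 (Col11a1, Col23a1, Col5a1, Col8a2) and the lung term 2, and fits without 1 library 5 to 9. Deviations of same-numbered libraries had a median correlation of 0.0109 over 133 pairs, with a range of -0.557 to 0.575. A median cannot tell whether some of these libraries were handled together. The replicate block changed no other count. A minimum mean of 0.5 CPM would leave 29 members. Fits of only the groups compared gave no value for averages over all groups, which use every library, nor for low members that missed the filter there.

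Under limma-voom with quality weights these fitted values changed sign: Col1a1 (-0.018) and Col3a1 (-0.20) for anti-PD-1 against vehicle on day 5, Col14a1 (0.69), Col8a2 (1.30) and Col6a3 (0.46) for the combination against anti-PD-1 on day 5, Col1a1 (-0.051) for day 5 against day 2 with anti-PD-1, Col6a6 (-0.11) for the change with time of the anti-PD-1 effect, and Col6a6 (0.23) for the interaction on day 5. Without 1 library, Col15a1 for the combination against EPAT on day 2 ran from -0.054 to 0.78 and Col5a3 for the combination against anti-PD-1 on day 2 from -0.071 to 0.71, both lowest without combination day 2 replicate 2. As deviations from group means, the correlations of Col7a1 with Krt14 and Col6a1 with Adipoq were -0.030 and 0.074. The cause was not tested in any of these. Members under about 1 CPM rest on few counts per library, and 9 of the 38 were too low to test.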
